A study of Mus musculus with 10 samples.

Results

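The VEGF and angiopoietin genes were described in E0771 breast tumors from wild-type (WT) mice and from EC-AGO1-KO mice, which lack the RNA-silencing protein AGO1 in endothelial cells (ECs). The set held 10 of the 31053 genes in the files, chosen by name. The ligands were Vegfa, Vegfb, Vegfc, Pgf and Angpt2, and the receptors were Kdr, Flt1, Nrp1, Tek and Tie1. E0771 is a mouse breast cancer line, and the cells were injected into the fourth mammary fat pad of female C57BL/6 mice aged 16 weeks. Tumors were taken at day 21. KO mice carried AGO1 flox/flox and a Cre driven by the VE-Cadherin (Cdh5) promoter, so the deletion did not extend to the injected tumor cells, and the WT mice were littermates. Single-cell RNA-seq gave 5 WT and 5 KO libraries. WT batch1 and KO batch1 were sequenced in batch 1, and the other 8 libraries in batch 2. KO 2-3 and KO 5-6 each pooled 2 tumors, and every other library held 1.

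VEGF-A is released by tumor and stromal cells and acts on ECs mainly through KDR (VEGFR2), the receptor that drives EC growth and permeability. FLT1 (VEGFR1) binds VEGF-A, VEGF-B and PlGF and can act as a decoy, and NRP1 is a co-receptor for VEGF and for semaphorins. The angiopoietins act through TEK (TIE2), with TIE1 as its partner. ANGPT2 is released by activated ECs and often opposes ANGPT1, which steadies the vessel wall.

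Libraries held 8323896 to 10591577 UMIs (unique molecules). A barcode counted as a cell when it held 200 to 7000 genes and no more than 10% of its UMIs were mitochondrial, which left 65298 cells. The median UMIs per cell were 4049 and 3862 in the batch 1 libraries and 595 to 1142 in batch 2. Genes spanning 100 kb or more took 11.6% and 11.8% of UMIs in the kept cells of batch 1, against 27.1% to 32.8% in batch 2. The batches therefore stood apart before any gene was considered, and a value over 10 libraries is a mean over both batches unless the batch is named. Libraries shared few barcodes, since 1.63% of cells had a barcode sequence that also occurred in another library. Clusters were built without the 10 genes and named from markers. They gave 55644 tumor-like, 2275 myeloid-like, 1252 T-like, 397 fibroblast-like, 201 pericyte-like and 170 endothelial-like cells. Another 452 cells were epithelial-like and 168 dendritic-like, and 4739 cells stayed unnamed. All 9 EC markers had UMIs in the endothelial-like cells, led by Pecam1 with 121 and Cdh5 with 116, while the lymphatic markers Prox1, Reln and Ccl21a were at 0, Lyve1 had 1 and Mmrn1 had 3. The 8 tumor markers summed to 8197 CPM in these cells against 18290 CPM in tumor-like cells, and their part in the values below was not tested. Ago1 itself had 0 UMIs in the endothelial-like cells of all 10 libraries, so the deletion could not be checked there. Over every barcode of a library, Ago1 stood at 6.41 ± 0.701 CPM for WT and 7.23 ± 1.43 CPM for KO (SD, n = 5 each), where CPM is a gene's UMIs scaled to a common total from which Actb was left out.

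The receptors that carried the endothelial pattern are introduced by the 250 bases before their RefSeq start (GRCm38.p6), shown for Kdr, Flt1 and Tek, on which the results below turn most. Capitals mark GGAA or its reverse complement TTCC, the core read by ETS factors, which many EC genes use. Kdr lay on the minus strand of chromosome 5 (gene 75932827 to 75978458), Flt1 on the minus strand of chromosome 5 (147561604 to 147726011) and Tek on the plus strand of chromosome 4 (94739289 to 94874976). The windows are chr5:75978456-75978705, chr5:147726012-147726261 and chr4:94739039-94739288.
Kdr: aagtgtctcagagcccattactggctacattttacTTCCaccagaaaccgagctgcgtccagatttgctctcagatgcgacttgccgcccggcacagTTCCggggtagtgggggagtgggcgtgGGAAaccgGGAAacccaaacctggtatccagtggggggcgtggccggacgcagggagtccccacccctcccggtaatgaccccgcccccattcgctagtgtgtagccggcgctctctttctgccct
Flt1: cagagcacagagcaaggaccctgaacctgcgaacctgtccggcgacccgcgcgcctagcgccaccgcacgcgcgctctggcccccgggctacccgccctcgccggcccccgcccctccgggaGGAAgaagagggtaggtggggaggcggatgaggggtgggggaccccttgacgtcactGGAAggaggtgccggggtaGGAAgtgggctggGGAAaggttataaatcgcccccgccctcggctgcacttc
Tek: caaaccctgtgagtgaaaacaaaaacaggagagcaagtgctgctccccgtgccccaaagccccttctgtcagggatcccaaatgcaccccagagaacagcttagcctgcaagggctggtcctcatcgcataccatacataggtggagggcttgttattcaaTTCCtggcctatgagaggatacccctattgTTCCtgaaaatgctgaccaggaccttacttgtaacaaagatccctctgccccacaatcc
The Kdr and Flt1 windows each held 4 copies and the Tek window 2. Of 32851 promoters of this length, 93.45% held at least 1 copy, 76.84% at least 2 and 33.38% at least 4, so these counts were common among promoters.

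Vegfa, the main VEGF ligand, was found chiefly in tumor-like cells, at much the same level in every library. Its level there was 28.2 ± 3.35 CPM (SD, n = 10 libraries). The lowest library was WT 1 at 21.1 CPM and the highest was KO 5-6 at 31.3 CPM. Tumor-like cells held 86.8% of all 1745 Vegfa UMIs in cells, but they also held 87.6% of all UMIs, so its share was close to that of the class itself. The batches gave like values, 30.5 CPM in batch 1 (n = 2) and 27.6 CPM in batch 2 (n = 8).

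Fibroblast-like cells had more Vegfa per UMI than tumor-like cells, from few reads. They were present in 8 libraries, all of batch 2, with a mean of 121 ± 82.5 CPM from 20 UMIs. Fibroblast-like cells were above the tumor-like cells in 7 of the 8 libraries. The exception was KO 1, at 0 UMIs. Among the fibroblast-like clusters, the largest (237 cells) held 18 of the 20 UMIs at 158 CPM, and the next (140 cells) held 1.

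Myeloid-like cells held 61 Vegfa UMIs, and their order against tumor-like cells differed between the batches. In batch 1, where depth per cell was greatest, they stood at 16.6 and 27.3 CPM against 29.8 and 31.2 CPM in tumor-like cells. In batch 2 they were above the tumor-like cells in 6 of 8 libraries, at 51.5 ± 52.8 CPM (SD, n = 8), from 0 to 5 UMIs per library. Barcodes with at most 50 UMIs, which hold RNA outside cells, had Vegfa at 11.6 and 15.5 CPM in batch 1 and at 17.4 to 34.3 CPM in batch 2. T-like cells, at 5 UMIs, and endothelial-like cells, at 1 UMI, were lower still.

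**Figure D1:**
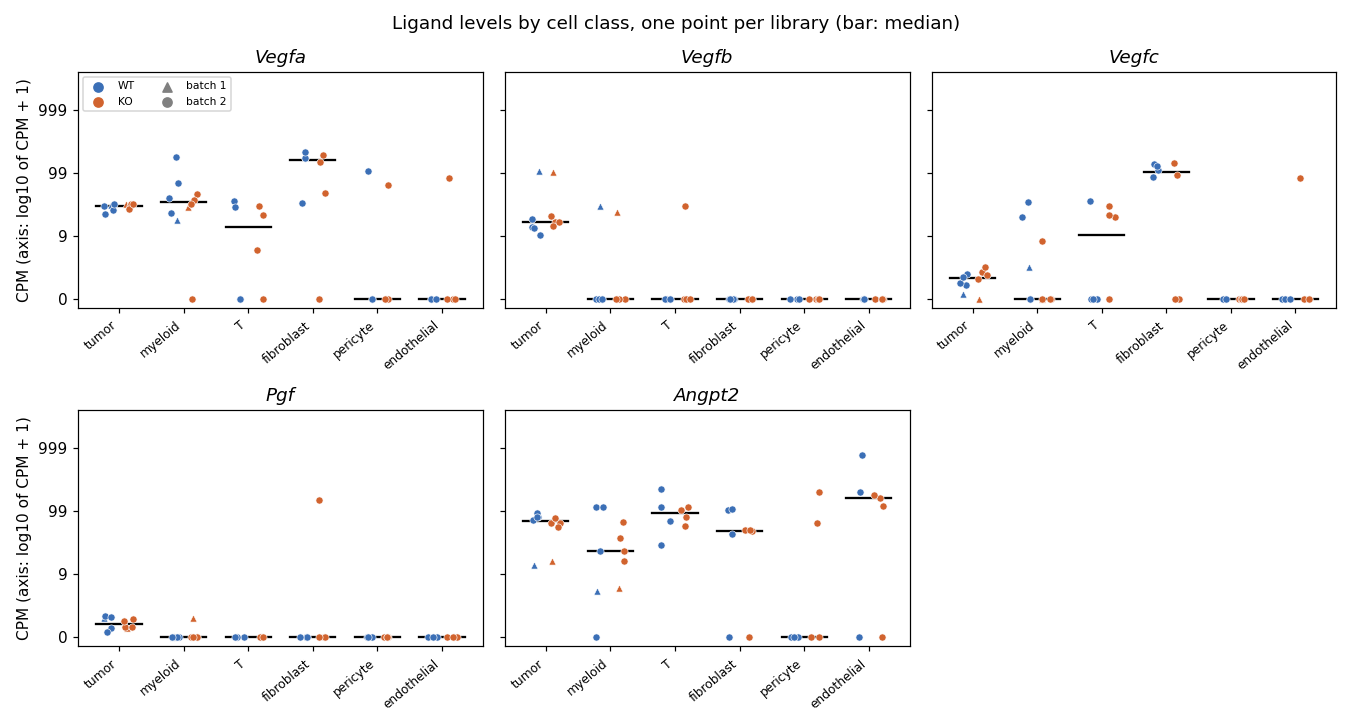
Levels of the 5 ligands in 6 cell classes, with 1 point per library of at least 10 cells in the class. The vertical axis is log10 of CPM + 1, bars are medians, color gives the group and shape the batch. Vegfa lies near 28 CPM in all tumor-like points, whereas Vegfb and Angpt2 split by batch there.

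Vegfb, a ligand of FLT1 linked to fatty acid handling, was also a tumor-cell transcript, with 94.3% of its 1871 UMIs in tumor-like cells. Its level depended on the batch. Tumor-like cells stood at 105 CPM in WT batch1 and 101 CPM in KO batch1, and at 9.36 to 19.4 CPM in the 8 batch 2 libraries. Myeloid-like cells showed the same split, with 28.8 and 22.4 CPM in batch 1 and 0 UMIs in each batch 2 library.

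Angpt2, which is textbook EC cargo, had 89.4% of its 3663 UMIs in tumor-like cells, close to the share of all UMIs in that class. The batch order was the reverse of that of Vegfb. Tumor-like cells held 12.7 CPM in WT batch1 and 14.9 CPM in KO batch1, against 54.8 to 93.1 CPM in batch 2. Endothelial-like cells held 31 UMIs, a pooled 273 CPM, of which 19 lay in the 6 cells of KO batch1 at 730 CPM. In the 7 libraries with at least 10 endothelial-like cells they were above the tumor-like cells in 5. T-like cells, which are not a known source, stood at 98.7 ± 59.4 CPM (SD, n = 8), all in batch 2. Barcodes with at most 50 UMIs held 25.1 to 41.1 CPM there, and the part of RNA outside cells in the T-like value was not tested.

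Vegfc, the lymphatic growth factor, was highest per UMI in fibroblast-like cells, although tumor-like cells held 55 of its 107 UMIs. Fibroblast-like cells held 14.95% of the UMIs with 0.277% of all UMIs, at 86.4 ± 57.1 CPM (SD, n = 8), against 1.29 ± 0.506 CPM (SD, n = 8) in the tumor-like cells of batch 2. They were the higher class in 6 of 8 libraries, and KO 1 and KO 5-6 had 0 UMIs. Endothelial-like cells held 7 UMIs, 5 of them in WT batch1, and pericyte-like cells held 0.

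Pgf, which encodes PlGF, a ligand of FLT1, was scarce, with 68 UMIs in cells. Tumor-like cells held 38, endothelial-like cells 5, all in batch 1, and fibroblast-like cells 2. Unnamed cells held 22, of which 16 came from a stromal cluster of 24 batch 1 cells.

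**Figure D2:**
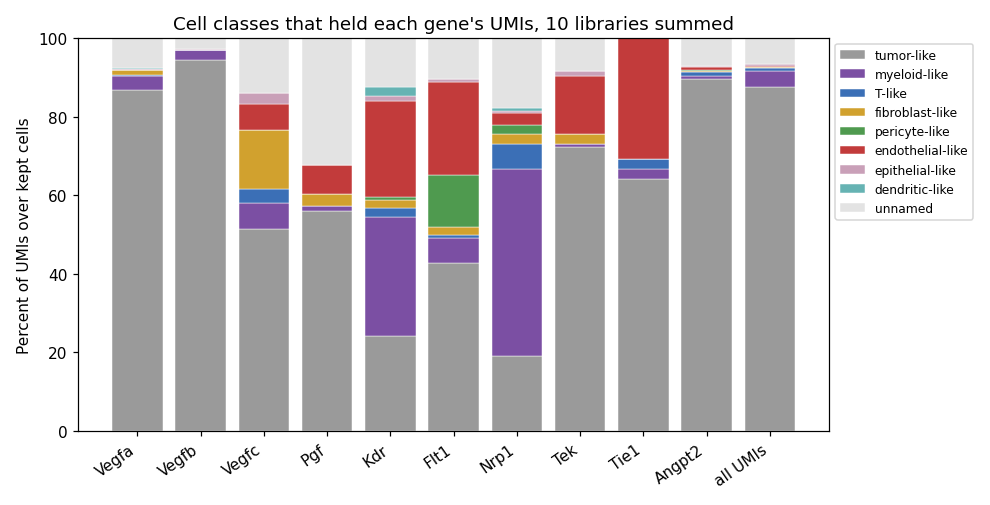
Percent of each gene's UMIs over kept cells that fell in each cell class, with 10 libraries summed, beside the same split of all UMIs (last bar). Vegfa, Vegfb and Angpt2 follow or exceed the tumor-like share of all UMIs, while Kdr, Flt1, Nrp1 and Tie1 fall short of it.

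The receptors were concentrated in endothelial-like cells, which held only 0.184% of all UMIs. They held 24.3% of the 136 Kdr UMIs, 23.8% of the 466 Flt1 UMIs, 30.8% of the 39 Tie1 UMIs and 14.8% of the 155 Tek UMIs. For Nrp1 the share was 3.07% of 521 UMIs. Most receptor UMIs thus lay in other classes. In tumor-like cells the receptors were at low levels over many more cells. Pericyte-like cells held Flt1 and myeloid-like cells held Nrp1 at higher levels.

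Kdr stood at 208 ± 178 CPM (SD, n = 7) in endothelial-like cells. The values were 312, 0 and 200 CPM in WT 1, WT 3 and WT 5. KO 1, KO 2-3, KO 4 and KO 5-6 gave 401, 120, 0 and 426 CPM. The groups overlapped, with KO 1 and KO 5-6 above these 3 WT values, and each group had 1 library at 0. In libraries with fewer than 10 such cells, Kdr stood at 387 CPM in WT batch1, 307 CPM in KO batch1 and 736 CPM in WT 4. Tumor-like cells were at 0.611 ± 0.509 CPM (SD, n = 10). Myeloid-like cells held 41 Kdr UMIs, 30.1% of the total, at 18.8 ± 12.1 CPM (SD, n = 10). In batch 1 they stood at 9.97 CPM for WT and 19.5 CPM for KO, against 0.817 and 2.67 CPM in barcodes with at most 50 UMIs. In batch 2 they stood at 0 to 32.9 CPM, from 0 to 3 UMIs per library, against 10.96 to 22.2 CPM.

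Flt1 was found in endothelial-like and in pericyte-like cells alike. Pericytes are the mural cells that wrap capillaries. In the pericyte-like cells the 8 pericyte markers summed to 12180 CPM, against 264 CPM in fibroblast-like cells. The 7 fibroblast markers summed to 17960 CPM in them, against 77170 CPM in fibroblast-like cells, and the tumor markers to 3812 CPM. The part of such mixing in the values below was not tested. In endothelial-like cells Flt1 was at 799 ± 554 CPM (SD, n = 7), and in pericyte-like cells at 824 ± 285 CPM (SD, n = 7). Endothelial-like cells were the higher of the pair in 4 of 7 libraries and pericyte-like cells in 3. All 7 libraries had Flt1 in pericyte-like cells, from 423 CPM in WT 1 to 1202 CPM in WT 3, and pericyte-like cells were above tumor-like, myeloid-like, T-like and fibroblast-like cells in all 7. Kdr, by contrast, had 1 UMI in the pericyte-like cells, and Tek and Tie1 had 0, which at 77917 UMIs allows up to 38.5 CPM.

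Tek, the angiopoietin receptor, was the only one of the 10 genes above every other compared class in all 7 libraries with at least 10 endothelial-like cells. Its level there was 306 ± 142 CPM (SD, n = 7), against 2.13 ± 1.27 CPM in tumor-like cells (SD, n = 10). WT 1, WT 3 and WT 5 stood at 469, 519 and 300.1 CPM, and KO 1, KO 2-3, KO 4 and KO 5-6 at 241, 240, 270 and 107 CPM. These rest on 1 to 3 UMIs per library. The 3 WT values were above the 4 KO values, although the counts were too low for the test across genes. How many other genes separated in this way was not counted. In the libraries left out for too few cells, Tek had 0 UMIs in WT 4, 5 UMIs (215 CPM) in WT batch1 and 1 UMI (38.4 CPM) in KO batch1.

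Tie1, the orphan partner of TEK, had 29 UMIs in the kept cells of batch 1 and 10 in those of batch 2. Endothelial-like cells had 8 UMIs in WT batch1 and 3 in KO batch1, at 344 and 115 CPM. In batch 2 they had 1 UMI, in WT 5. Over every barcode, 95 of the 127 Tie1 UMIs came from batch 2.

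Nrp1 was the most widely shared of the receptors among the classes compared. It stood at 102 ± 67.9 CPM in myeloid-like cells (n = 10), 72.8 ± 51.6 CPM in T-like cells (n = 8) and 77.4 ± 58.2 CPM in fibroblast-like cells (n = 8), with SD over libraries. Pericyte-like cells were at 166 ± 94.3 CPM and endothelial-like cells at 201 ± 163 CPM (SD, n = 7 each). The means ± SD of these 5 classes overlapped, and no test between them was run. Within libraries, endothelial-like cells were above T-like cells in 6 of 7 and below in 1. Pericyte-like cells were above fibroblast-like cells in 6 of 7 and below in 1. The other pairs of these classes were less one-sided. Tumor-like cells were far lower, at 1.88 ± 0.811 CPM (SD, n = 10), and were below the myeloid-like cells in 9 of 10 libraries. Myeloid-like cells alone held 47.4% of Nrp1 UMIs with 3.96% of all UMIs.

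**Figure D3:**
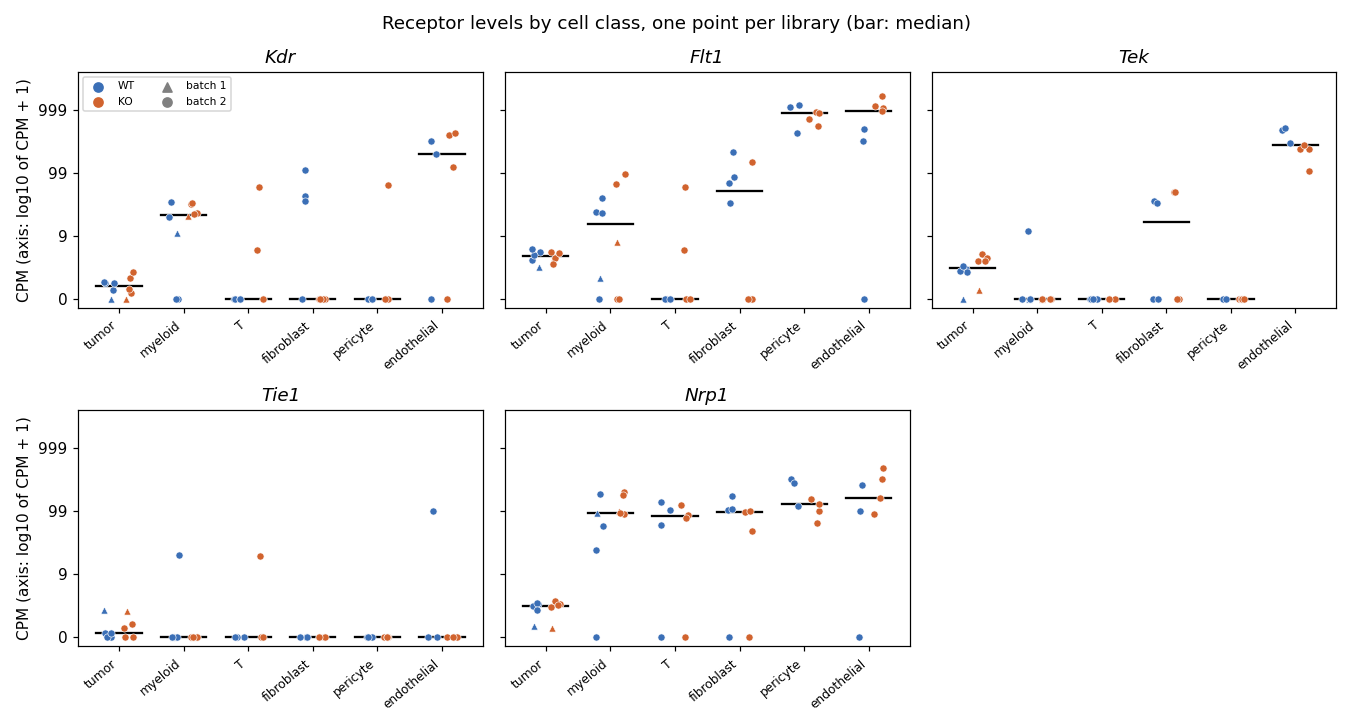
Levels of the 5 receptors in 6 cell classes, with 1 point per library of at least 10 cells in the class, on an axis of log10 of CPM + 1. Bars are medians. Kdr and Tek are highest in endothelial-like cells, and Flt1 is as high in pericyte-like cells. Nrp1 averages 72.8 to 201 CPM in every class shown but the tumor-like cells.

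Tumor-like cells were not uniform for these genes. Among 9 tumor-like clusters, Vegfa ranged from 18.9 to 39.6 CPM. The cluster with the most (7128 cells) had metallothioneins and heme oxygenase (Mt1, Mt2, Hmox1) among its leading genes, and its summed level of 15 hypoxia genes was 2198 CPM, in a range of 1702 to 2383 CPM over the 9 clusters. With cells pooled over the libraries of each group, it made up 10.6% of the tumor-like cells of WT and 15.5% of those of KO. The cluster with the least Vegfa (7629 cells) made up 16.8% and 9.92%. The spread of these shares over libraries was not measured, so no group difference is drawn from them. A cluster of 2223 cells led by Gm10800 and Gm10801 stood out for the members spanning 100 kb or more. It had Tek at 11.8 CPM, Nrp1 at 11.8 CPM, Flt1 at 8.58 CPM and the ligand Vegfc at 10.2 CPM. In barcodes with at most 50 UMIs, over 10 libraries pooled, these genes stood at 28.4, 46.6, 56.7 and 22.1 CPM. The part of gene span and of RNA outside cells in the cluster's values was not tested. In the other 8 tumor-like clusters Tek ranged from 0.179 to 2.89 CPM. Kdr, which spans 45.6 kb, was also highest in the cluster of 2223 cells. It stood there at 3.22 CPM from 6 UMIs, against 0 to 1.45 CPM in the other 8. Likeness was measured as Pearson's r of log2(CPM + 20) over 30 clusters of at least 50 cells, which share libraries and depth. For Kdr the nearest genes were Zhx1 (r = 0.853), Cd36 (0.805), Zfp423 (0.78), Fabp4 (0.769) and Ramp2 (0.763), of which Cd36 and Fabp4 take up and carry fatty acids and are frequent in capillary ECs. For Nrp1 they were Pde8a (0.865), Fam46a (0.86), Cntln (0.85), Hpcal1 (0.841) and Slco3a1 (0.831). For Vegfa they were Aldh1l2 (0.767), Tln2 (0.739), Sardhos (0.73), Ddah1 (0.72) and Wipi1 (0.719).

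The comparison of WT with KO asks whether EC loss of AGO1 goes with a change in ligand sources or receptors. No member passed an adjusted p of 0.05 in any class where it was tested. The filter on low counts left 17 fits of a member in a class, so most pairs of member and class were not tested. In endothelial-like cells Flt1 was the only member tested. The share of all tested genes called by edgeR's quasi-likelihood test was 0% of 14181 in all cells, 0% of 13086 in tumor-like, 0% of 2359 in myeloid-like, 0% of 803 in T-like, 0% of 139 in pericyte-like and 0% of 148 in endothelial-like cells, and 0.771% of 389 in fibroblast-like cells. At an unadjusted p under 0.05 there were 1313, 788, 94, 35, 7, 13 and 19 genes in the same order. DESeq2 called 2 in all cells, 2 in fibroblast-like cells and 0 in the other 5. In bulk sums over a class, fewer cells of one kind and less RNA per cell cannot be told apart.

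Vegfa did not move detectably. In tumor-like cells WT stood at 27.0 ± 4.04 CPM and KO at 29.4 ± 2.31 CPM (SD, n = 5 each), a log2 fold change (KO over WT) of 0.07 with an SE of 0.132 (edgeR adjusted p = 0.952). Vegfb differed by 0.15 with an SE of 0.162 (edgeR adjusted p = 0.900).

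Angpt2 in tumor-like cells did not pass the test, and most KO values of batch 2 lay below the WT values. WT 1, WT 3, WT 4 and WT 5 gave 77.9, 71.4, 93.1 and 78.5 CPM. KO 1, KO 2-3, KO 4 and KO 5-6 gave 64.1, 63.9, 76.8 and 54.8 CPM. The groups overlapped through KO 4 alone, and in batch 1 the order was reversed, 12.7 CPM for the WT library against 14.9 CPM for the KO library. The log2 fold change was -0.28 with an SE of 0.135 (edgeR adjusted p = 0.821).

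Tek in tumor-like cells did not pass the test, from few UMIs. The batch 2 WT libraries gave 1.64 to 2.25 CPM and the KO libraries 2.92 to 4.03 CPM, with no overlap. How many other genes had no overlap was not counted. Batch 1 had 0 UMIs in WT and 2 in KO. The sums over both batches were 44 WT and 68 KO UMIs. The log2 fold change was 0.83 with an SE of 0.31 (edgeR adjusted p = 0.818). Barcodes with at most 50 UMIs in batch 2 held Tek at 16.4 to 34.5 CPM in WT libraries and 29.9 to 56.6 CPM in KO libraries. The part of RNA outside cells in the tumor-like values was not tested.

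Flt1 in endothelial-like cells had the largest log2 fold change of the 17 member fits. WT 1, WT 3 and WT 5 held 2, 0 and 5 UMIs, or 312, 0 and 500.2 CPM. KO 1, KO 2-3, KO 4 and KO 5-6 held 14, 9, 18 and 9 UMIs, or 1123, 1078, 1618 and 958 CPM. All 4 KO libraries were above the 3 WT libraries, and the 0 in WT 3 allows up to 778 CPM. How many of the 148 genes tested in this class separated in the same way was not counted. The log2 fold change was 1.75 with an SE of 0.743 (unadjusted p = 0.0187 and adjusted p = 0.428, edgeR). The libraries left out for too few cells ran the other way in batch 1, at 1419 CPM in the 7 cells of WT batch1 and 769 CPM in the 6 cells of KO batch1, and WT 4 stood at 368 CPM from 1 UMI. The summed level of the 9 EC markers in the 7 libraries was 1801 to 3373 CPM in WT and 1810 to 2876 CPM in KO, so it did not separate the groups. Pericyte markers in these cells ranged from 0 to 778 CPM for WT libraries and from 0 to 2037 CPM for KO libraries, and their part was not tested. Tumor markers in them summed to 5708 to 11090 CPM for WT libraries and to 4194 to 7909 CPM for KO libraries, which was not tested either. In pericyte-like cells Flt1 overlapped, with 423, 1202 and 1104 CPM in WT libraries against 544 to 904 CPM in KO libraries.

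Nrp1 over all kept cells, with 224 WT and 297 KO UMIs, did not pass either. The log2 fold change was 0.51 with an SE of 0.186 (edgeR adjusted p = 0.456). Within myeloid-like cells, which held the largest share of it, the difference was 0.18 with an SE of 0.299 (edgeR adjusted p = 0.996).

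Genes around the pathway were not called either. Of 13 other ligands, receptors and partners, 10 were tested in all cells and 0 were called, 5 of them with a positive sign (median log2 fold change -0.02). Of 13 endothelial response genes 7 were tested, 2 with a positive sign, and 0 called (median -0.16). Of 15 hypoxia genes 15 were tested, 4 with a positive sign, and 0 called (median -0.05). The median over all genes tested was -0.00438. In tumor-like cells 14 hypoxia genes were tested, 7 of them with a positive sign, and 0 were called.

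Over 10 libraries pooled, much of the receptor RNA lay outside the cells that passed the limits. Kept cells held 73.6% of all UMIs in the libraries, but 25.0% of the 544 Kdr UMIs, 27.5% of the 1692 Flt1 UMIs, 23.9% of the 648 Tek UMIs, 30.7% of the 127 Tie1 UMIs and 31.3% of the 1666 Nrp1 UMIs. Vegfa, Vegfb and Angpt2 had 77.6%, 85.6% and 85.7% in kept cells. The receptor shares were those of batch 2, where kept cells held 71.7% of all UMIs, 17.7% of Kdr, 23.7% of Flt1, 10.5% of Tie1 and 19.9% of Nrp1 UMIs, and 145 of the 630 Tek UMIs. In batch 1 they held 80.8% of all UMIs, 50 of 59 Kdr, 98 of 140 Flt1, 10 of 18 Tek, 29 of 32 Tie1 and 245 of 279 Nrp1 UMIs. Over both batches, barcodes above 50 UMIs but under 200 genes held 10.3% of all UMIs. They held 38.8% of Kdr, 31.0% of Nrp1, 27.6% of Flt1, 20.5% of Tie1 and 17.75% of Tek UMIs. Barcodes with at most 50 UMIs held 15.9% of all UMIs, and 35.5%, 37.15%, 44.6%, 48.8% and 58.3% of the same genes. The latter barcodes held Tek at 28.4 CPM against 2.52 CPM in kept cells, 11.3 times the level, and Flt1 at 7.5 times. This measure went with gene span. Over all genes with at least 200 UMIs, the median ratio over 10 libraries was 0.761 for spans under 20 kb (4975 genes), 1.06 for 20 to 100 kb (6816 genes) and 6.64 for 100 kb and over (2714 genes). For the longest class it was 0.650 in batch 1 and 7.75 in batch 2. Flt1 spans 164 kb, Nrp1 145 kb, Tek 136 kb and Vegfc 109.5 kb, with ratios from 5.5 (Nrp1) to 12.7 (Vegfc). Kdr (45.6 kb, 6.58 times) and Tie1 (18.9 kb, 7.37 times) exceeded the median of their span class, as did Pgf, Flt1, Tek and Vegfc, while Nrp1 did not. Of the 9 EC markers 8 exceeded theirs, among them Cdh5 (42.9 kb, 4.58 times) and Cldn5 (1.42 kb, 2.75 times), and Egfl7 (13.1 kb) stood at 0.651.

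**Figure D4:**
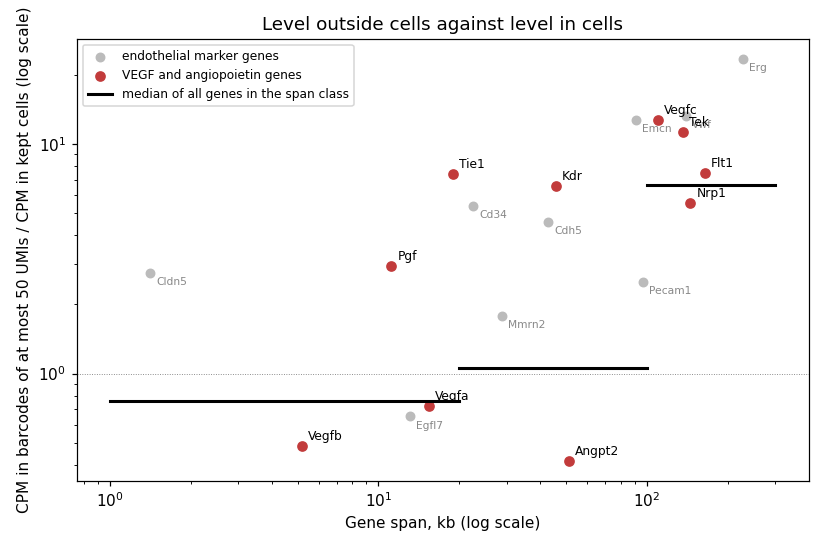
Ratio of each gene's CPM in barcodes of at most 50 UMIs to its CPM in kept cells (log scale) against gene span in kb (log scale), with 10 libraries pooled. Red points are the 10 genes, grey points 9 EC markers, and black bars the median of all genes in 3 span classes. Kdr and Tie1 lie above the bar of their span class, and Vegfa, Vegfb and Angpt2 lie below 1.

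Summing every barcode of a library raised the receptor counts, with 0% of 19764 genes passing by edgeR (4830 at an unadjusted p under 0.05). Tek gave the smallest p of the members. Its WT values in batch 2 were 5.77, 8.88, 4.94 and 4.9 CPM, and the KO values 15.3, 9.36, 13.9 and 13.2 CPM. The groups did not overlap in batch 2, but how many of the 19764 genes did the same was not counted, so this does not set Tek apart. In batch 1 WT stood at 0.905 and KO at 1.23 CPM. The log2 fold change was 0.84 with an SE of 0.212 (unadjusted p = 0.000663 and adjusted p = 0.144, edgeR). Flt1 in batch 2 was 18.2 ± 4.25 CPM for WT libraries and 28.9 ± 4.74 CPM for KO libraries (SD, n = 4 each). Kdr was 6.09 ± 1.71 CPM for WT and 8.51 ± 0.849 CPM for KO (SD, n = 4 each). For both, batch 1 differed in level, and for Flt1 it had WT above KO, at 9.16 against 7.23 CPM. Flt1 gave an adjusted p of 0.237, Kdr 0.265, Nrp1 0.156 and Angpt2, in the opposite direction, 0.175 (edgeR). In barcodes with at most 50 UMIs, 0% of 16037 genes passed (4606 at an unadjusted p under 0.05), and Tek differed by 0.82 with an SE of 0.253 (edgeR adjusted p = 0.0878). Genes of 100 kb and over had a median log2 fold change of 0.39 in the sum over every barcode, against -0.04 for those under 20 kb. In the same sum the pathway lists gave 0 calls, with a positive sign in 10 of 13 other ligands, receptors and partners (median 0.42), 7 of 11 endothelial response genes (0.18) and 1 of 15 hypoxia genes (-0.28), beside 0.03 for all genes tested. In barcodes with at most 50 UMIs the signs were positive in 9 of 12, 5 of 7 and 1 of 15 (medians 0.38, 0.37 and -0.77, and 0.04 for all genes). Among all genes tested in these barcodes, 26.75% under 20 kb, 59.4% of 20 to 100 kb and 74.5% of 100 kb and over were positive. Over every barcode these shares were 46.1%, 54.75% and 62.5%. Gene span moved with the group in these sums. Its part in the Tek, Flt1 and Nrp1 values and in the signs of the lists was not tested.

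**Figure D5:**
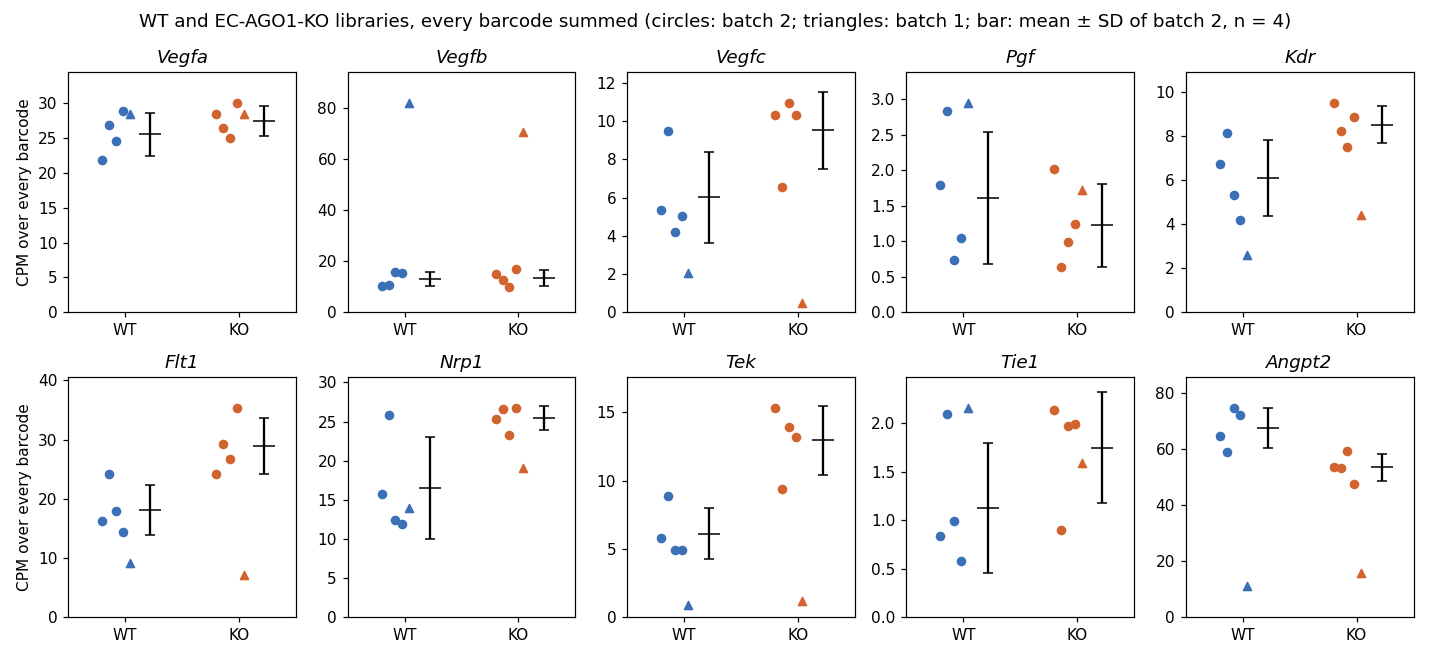
CPM of each of the 10 genes summed over every barcode, with 1 point per library. Circles are batch 2 and triangles batch 1, and the bars give the mean ± SD of the 4 batch 2 libraries of a group. Within batch 2 Tek runs from 4.9 to 8.88 CPM in WT and from 9.36 to 15.3 CPM in KO, and Vegfa overlaps between the groups.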

How the data were processed

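Per the labels, the authors aligned 10x Genomics 3′ libraries to mm10 with Cell Ranger 7.1.0 (the study's methods give another patch version) and deposited raw UMI counts for every barcode. Whether intronic reads were counted is not given in the sources used here. Cells were barcodes of 200 to 7000 genes with no more than 10% mitochondrial UMIs. Cells were clustered (scanpy 1.11.5, leidenalg 0.10.2, resolution 1) without the 10 genes, 3 pathway lists and Actb, in 3 steps: all cells, non-tumor clusters, stromal clusters. A class needed at least 3 markers at 2 times the median cluster. The third step, a limit on tumor markers (75% of the tumor-like level) and unnamed ties were set after clusters and member levels were seen, before any WT and KO fit. Doublets were not called. Counts were summed per library and class, leaving out libraries with fewer than 10 cells and Actb from totals, and tested with edgeR 4.0.16 (quasi-likelihood, TMM, filterByExpr, batch term, Benjamini-Hochberg over all genes), which was tested on simulated data. All libraries of T-like, fibroblast-like, pericyte-like and endothelial-like tests were of batch 2. DESeq2 1.42.0, other filters, cells and library sets were alternatives. Levels between classes are descriptions without a test. Members were named by the rule that all 10 are reported. Members and lists were chosen with earlier results of these data known. Summing every barcode was added after the data were seen. Positions are from GENCODE vM21, promoters from RefSeq (9 of 10 members matched). The limit given for 0 UMIs is 3 counts, covering counting error only.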

Additional observations from a re-analysis of the deposited data

Results flagged for a closer look

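Among 40 groups of 5 libraries (members in all, tumor-like and myeloid-like cells, by WT and KO), 12 had 1 library far from the other 4. In all 12 it was the batch 1 library. The limit used passes about 1 in 20 separate groups of like libraries. These groups share libraries and cells, and each held 1 batch 1 library, so that rate does not apply to the count. Vegfb in batch 1 was high in all cells (92.6 CPM in WT and 84.0 CPM in KO), in tumor-like cells (105.1 and 100.5 CPM) and in myeloid-like cells (28.8 and 22.4 CPM). Nrp1 over all cells was high in batch 1, at 14.7 CPM in WT against 3.74 to 5.15 CPM in the others, and at 21.3 CPM in KO against 5.65 to 9.81 CPM. Low values were found as well. Angpt2 in WT batch1 was at 11.6 CPM in all cells and 12.7 CPM in tumor-like cells, Vegfc in KO batch1 was at 0.307 CPM in all cells, and Tek in WT batch1 was at 0 CPM in tumor-like cells. Batch 1 also had more UMIs per cell and a smaller share of UMIs in long genes, and the part of either was not tested.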

How the results depend on the processing

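No member was called in any of 344 fits under alternatives, and 319 of these kept the direction. The log2 fold changes below turned sign, and the cause was not tested. With batch 2 alone Vegfc in all cells was 0.219, and with no batch term Vegfb was -0.0602. Without the pooled KO libraries, Vegfa was -0.00577 in all cells and -0.00446 in tumor-like cells, and Vegfb -0.0256 in all cells. With every barcode, Vegfc was 0.238, Vegfa -0.0919 and Vegfb -0.197, and with barcodes of at most 50 UMIs 0.36, -0.239 and -0.83. With at least 500 genes per barcode, Flt1 was -0.257 and Vegfa -0.0234 in all cells, Vegfa -0.0484 in tumor-like cells and Nrp1 -0.0515 in myeloid-like cells. With at most 5% mitochondrial UMIs, Nrp1 in tumor-like cells was -0.00113. Leaving out 1 library gave -0.0121 to 0.0878 for Vegfa, -0.0311 to 0.161 for Vegfb and -0.37 to 0.195 for Vegfc in all cells, and -0.00491 to 0.132 for Vegfa, -0.0794 to 0.123 for Nrp1 and -0.257 to 0.00899 for Flt1 in tumor-like cells. The sign turned without WT 1 for Vegfa and Vegfb, without KO 5-6 for Vegfb, without either batch 1 library for Vegfc, without WT 5 or KO 4 for Nrp1 and without KO 4 for Flt1.

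Counts of called genes moved. In all cells there were 2 with DESeq2, 242 with no filter on low counts and 1 without the pooled KO libraries. In tumor-like cells there were 40 with no filter and 1 without the pooled KO libraries. In myeloid-like cells there were 13 with no filter, 2 in batch 2 alone, 2 with Actb kept and 1 with at most 5% mitochondrial UMIs. The 3 calls in fibroblast-like cells went to 0 with no filter and to 0 without the pooled KO libraries. Leaving out 1 library gave 0 to 1 calls in all cells (1 without KO 2-3 or KO 4) and in tumor-like cells (1 without WT 1, WT 4, WT 5, KO 4 or KO 5-6). It gave 0 to 3 in myeloid-like cells (3 without WT 4, 2 without either batch 1 library), 0 to 3 in fibroblast-like cells (1 without WT 4, 0 without WT 1, WT 5 or any KO library but KO 1) and 0 to 3 in endothelial-like cells (3 without WT 3, 1 without KO 1). T-like and pericyte-like cells had 0 throughout. The Vegfa share of tumor-like cells averaged 87.0% (86.1 to 88.0% leaving out 1 library) and the Kdr share of endothelial-like cells 20.7% (18.0 to 23%).

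With a replicate block (WT 1 with KO 1, WT 4 with KO 4), 0 genes passed in all cells and the Flt1 change in endothelial-like cells was 1.62. The deviations of these same-numbered libraries correlated at -0.27 and -0.38, and those of other WT and KO libraries at -0.23 to 0.48. So few pairs cannot settle whether the numbers mark a pairing. No call changed with the block. Fits with at least 500 genes in the 4 small classes, and batch alternatives there, were not run for want of cells or of a second batch. Depth limits the endothelial-like class, where 9 of 10 members were too low to test.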

Other observations

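A stromal cluster of 24 batch 1 cells held equal shares of the fibroblast and the pericyte markers and stayed unnamed. Its levels were Vegfa at 234 CPM (36 UMIs), Nrp1 at 208 CPM (32 UMIs), Pgf at 104 CPM (16 UMIs), Flt1 at 51.9 CPM (8 UMIs) and Vegfc at 39.0 CPM (6 UMIs). Kdr, Tek and Tie1 had 0 UMIs there.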
